A study of Mus musculus with 4 samples.

Results

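P815 mast cells without imatinib were compared with primary bone-marrow-derived mast cells (BMMC) given stem cell factor (SCF), the 2 samples of the series in which the receptor KIT is taken to be active. The comparison covers every perfect-match array probe named for a mouse, human or rat miRNA, which gave 678 of the 1406 probes on each array. Of these, 167 were mouse-named, 455 human-named and 56 rat-named, and they carried 574 distinct names. They were joined into 389 mouse miRNAs, of which 379 had a gene of that name in the mouse reference gene table, and 185 names had no mouse gene. The other probes were 604 mismatch probes, 107 virus or worm miRNA probes and 17 control probes.

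Per the labels, BMMC are primary mouse cells grown in SCF and interleukin 3, and the sample used here, called SCF-treated BMMC, received SCF at 100 ng per cc for 24 h. P815 is a mouse mast cell line labelled as KIT mutant (D814V) and grown without cytokines, and the sample used here, called untreated P815, received no imatinib. The other 2 arrays of the series held BMMC starved of SCF and P815 given the KIT inhibitor imatinib at 10 nM for 24 h. P815 is 1 line and BMMC are primary cells from marrow, whose mouse strain, age and number of animals the labels leave out. Cell type, KIT genotype and culture medium differ together between these samples and cannot be told apart. KIT activity was not measured, and "active" follows the treatments only.

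A mast cell is a tissue-resident immune cell that depends on SCF, which binds KIT and switches on its kinase. A kinase mutation of the type carried by P815 keeps KIT active without SCF. A miRNA is a short RNA that guides the Argonaute protein to mRNAs, mainly through its seed (bases 2 to 8 from the 5′ end), and lowers their output. miRNAs of 1 seed form a family with overlapping targets, and several families are made from shared primary transcripts.

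The mature sequences below are those of the miRNAs that stood farthest apart between P815 and BMMC, or of near relatives that did not, and the capitals mark the seed. They are RefSeq sequences of mouse build GRCm38.p6, matched by name for 125 of the 196 miRNAs compared below. The arm was assigned to the old array names without an arm from general knowledge. The first set was lower in P815.
miR-10a: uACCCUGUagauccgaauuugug
miR-146b: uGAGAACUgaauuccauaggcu
miR-210: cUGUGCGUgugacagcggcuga
miR-103: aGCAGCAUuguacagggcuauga
miR-107: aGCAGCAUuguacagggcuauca
miR-26a: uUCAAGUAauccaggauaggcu
miR-221: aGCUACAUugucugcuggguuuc
miR-222: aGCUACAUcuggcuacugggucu
miR-27a: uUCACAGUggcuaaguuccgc
miR-27b: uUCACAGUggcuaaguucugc
miR-34a: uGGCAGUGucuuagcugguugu
let-7c: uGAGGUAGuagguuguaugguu

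The second set was higher in P815, apart from miR-193a. miR-193a shares its seed with miR-193b, and miR-449 shares its seed with miR-34a of the first set.
miR-193b: aACUGGCCcacaaagucccgcu
miR-193a: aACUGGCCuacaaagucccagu
miR-365: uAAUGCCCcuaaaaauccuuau
miR-431: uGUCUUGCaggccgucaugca
miR-17-5p: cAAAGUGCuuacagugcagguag
miR-106a: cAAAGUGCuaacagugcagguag
miR-20a: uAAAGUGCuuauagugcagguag
miR-20b: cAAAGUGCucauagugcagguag
miR-574: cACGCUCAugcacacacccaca
miR-449: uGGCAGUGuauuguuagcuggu

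The third set holds the seed groups with at least 3 measured miRNAs that had a sequence and all lay on 1 side of 0. These are the miR-29, miR-181 and miR-15 groups below 0 and the miR-25 and miR-92 group above it. The 4 measured miR-30 miRNAs also lay below 0 but are left out, as miR-30b and miR-30d had no matched sequence.
miR-29a: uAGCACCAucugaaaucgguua
miR-29b: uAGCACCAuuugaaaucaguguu
miR-29c: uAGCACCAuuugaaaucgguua
miR-181a: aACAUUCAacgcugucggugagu
miR-181b: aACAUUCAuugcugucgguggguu
miR-181c: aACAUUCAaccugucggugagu
miR-181d: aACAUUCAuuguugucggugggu
miR-15a: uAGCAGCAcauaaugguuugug
miR-15b: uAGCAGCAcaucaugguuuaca
miR-16: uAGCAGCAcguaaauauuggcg
miR-195: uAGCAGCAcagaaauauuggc
miR-497: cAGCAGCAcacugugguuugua
miR-25: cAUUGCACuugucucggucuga
miR-92: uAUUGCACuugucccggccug
miR-92b: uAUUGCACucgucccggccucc

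Mature miR-10a lies at chr11:96317186-96317208 on the plus strand, in Mir10a. Mature miR-193b lies at chr16:13449570-13449591 on the plus strand, in Mir193b. miR-221 and miR-222 are neighbours on the minus strand, at chrX:19146307-19146329 and chrX:19146901-19146923.

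Each array value is a linear intensity. A probe is called listed on an array when its intensity was at least 1.5 times that array's median mismatch probe, a limit of 415.9 in SCF-treated BMMC and 304.5 in untreated P815. Of the member probes, 281 were listed in SCF-treated BMMC and 237 in untreated P815. Among the mouse miRNAs, 175 and 153 were listed. The median member intensity was 361.2 in SCF-treated BMMC and 253.5 in untreated P815, against mismatch medians of 277.2 and 203.0, so many members lay near background. Log2 intensities over the members correlated at r = 0.83 between these 2 arrays, at 0.98 between the BMMC arrays and at 0.92 between the P815 arrays, a description across probes of shared arrays. With a single array for each group the differences carry no replicate error, no test was made, and the number of arrays limits the precision. In bulk RNA, fewer cells of a type and less RNA per cell cannot be told apart.

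Differences are given as log2 of untreated P815 over SCF-treated BMMC, after background correction and quantile normalization over the 4 arrays. A mouse miRNA entered when listed on either of the arrays, which 196 of 389 did: 132 on both, 43 in BMMC only and 21 in P815 only. Of the 196, 97 were at least 2-fold apart (49.5%), 38 of them higher in P815 (19.4%) and 59 lower (30.1%). Over all member probes that entered, 132 of 313 were at least 2-fold apart (42.2%), 52 of them higher (16.6%) and 80 lower (25.6%). Virus and worm probes give the background: 11 of 40 were at least 2-fold apart (27.5%), 5 higher (12.5%) and 6 lower (15%). The background share was thus large, and the differences of the miRNAs had an SD of 1.24 against 0.90 for the virus and worm probes. The median difference was 0.52 for the virus and worm probes and -0.08 for the miRNAs, so that small positive differences and list medians lie within the shift of the background. Mouse-named probes were 2-fold apart in 38 of 78 cases (48.7%) and human-named probes with a mouse gene in 71 of 146 (48.6%). Human-named probes with no mouse gene were apart in 17 of 64 cases (26.6%), and rat-named probes in 6 of 25 (24.0%), both near the virus and worm share.

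The scaling set the balance of higher and lower miRNAs. Before scaling, the BMMC array was brighter for most of the 196, with a median intensity ratio of BMMC over P815 of 2.17, and 14 were brighter in P815. All 59 lower miRNAs were brighter in BMMC before scaling. That an unscaled reading was lower in P815 is therefore not particular to a miRNA named below. The arrays of a cell type differ in treatment and are not replicates. Of the 38 higher, 13 were brighter in P815 before scaling and 25 were brighter in BMMC, so that the second group stood higher only relative to the other miRNAs. The median difference of the 196 was -0.08 after quantile normalization, -0.24 after cyclic loess, -0.70 after median centring and -1.30 with no scaling. The counts higher and lower were 23 and 56 with cyclic loess, 7 and 77 with median centring, and 2 and 113 with no scaling. With miRNAs listed on both arrays only, 30 were higher and 30 lower.

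Where a miRNA was listed on 1 array only, its difference is open-ended and the fold is written as "at least", with the fainter side set at the lowest listed value of its array or at its own reading, whichever is higher. These bounds hold on the normalized scale only, and for miRNAs higher in P815 the fold before scaling was smaller. Counts at least 2-fold apart use the measured difference unless the bound is named. With those miRNAs at their bound, 34 were at least 2-fold higher (17.3%) and 37 lower (18.9%), 36.2% in all. Under all 7 other scalings and background corrections, 37 of the 59 lower miRNAs stayed at least 2-fold lower, and 2 of the 38 higher, miR-193b and miR-431, stayed at least 2-fold higher. All 59 lower miRNAs and 16 of the 38 higher kept their direction under those 7. Cyclic loess, median centring and no scaling lowered the median difference of the 196, to -0.24, -0.70 and -1.30. These shifts favoured the lower miRNAs, so the counts do not weigh the 2 directions alike.

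The other 2 arrays, imatinib-treated P815 against starved BMMC, gave a second pair that shares no array with the first. The treatments differ, so it is not a replicate. In it, 19 of 259 miRNAs were at least 2-fold higher in P815 (7.34%) and 39 lower (15.1%), 22.4% in all. Of 191 miRNAs in both pairs, 149 had the same sign (78.0%), and the virus and worm probes did so in 32 of 40 cases (80%), so the share of like signs did not set the miRNAs apart from the background. The differences correlated across miRNAs at r = 0.78 and rho = 0.72, against r = 0.64 and rho = 0.67 across the virus and worm probes, whose arrays and normalization are the same. Of the 38 higher miRNAs, 15 were at least 2-fold higher in the second pair too, and of the 59 lower, 31 were at least 2-fold lower. Among the 37 lower miRNAs that stayed 2-fold under every scaling and background correction, 24 were also at least 2-fold lower in the second pair.

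miR-10a, which is encoded among the Hoxb genes, was among the lowest in P815. Its intensity was 5454 in starved BMMC, 3087 in SCF-treated BMMC, 200.2 in untreated P815 and 154.0 in imatinib-treated P815. Both BMMC arrays were far above the listing limit and both P815 arrays were below theirs. The difference was -3.81, at least 6.32-fold lower in P815 (-2.66 at the bound), and -4.36 in the second pair. At their bounds miR-146b, at -3.51, and miR-210, at -2.88, lay below miR-10a, so these 3 have no settled order. miR-615, another miRNA of a Hox locus, had a difference of -1.45, or -0.40 at its bound, against 0.55 in the second pair, and its probe was not brighter than its own mismatch probe. miR-196a, encoded between Hox genes, was not listed on either array.

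miR-146b, of the miR-146 family that dampens innate immune receptor signalling, also lay far lower in P815. Its intensity was 8608 and 6009 in BMMC without and with SCF, and 299.0 and 332.8 in P815 without and with imatinib. The probe read brighter on both BMMC arrays, as most miRNAs did before scaling in the compared pair. The P815 value without imatinib was just under the listing limit. The difference was -3.57, at least 11.4-fold lower, and -3.34 in the second pair. Its relative miR-146a was not listed on either array, at intensities of 386.2 in SCF-treated BMMC and 234.0 in untreated P815.

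miR-210, known for its induction in hypoxia, had intensities of 8728 and 8028 in BMMC without and with SCF, and 470.0 and 364.0 in P815 without and with imatinib. It read brighter on both BMMC arrays, as most miRNAs did before scaling in the compared pair, and the normalized difference was -2.88, 7.36-fold lower. In untreated P815 its mismatch probe read 462.5, close to the matched probe, while in SCF-treated BMMC the mismatch probe read 890.0.

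miR-103 and miR-107 lie in introns of pantothenate kinase genes, share their seed and differ at 1 base. miR-107 had intensities of 18783 and 14431 in BMMC without and with SCF, and 846.8 and 1517 in P815 without and with imatinib. miR-103 had 23694 and 17624 in the BMMC arrays, and 1080 and 1831 in the P815 arrays. Before scaling both read brighter on both BMMC arrays, as most miRNAs did in the compared pair. After normalization miR-107 was 5.88-fold and miR-103 4.79-fold lower. Hybridization may not separate the pair, so they may report on the same RNA. miR-26a, which lies in introns of phosphatase genes of the Ctdsp family, had intensities of 9538 and 7321 in the BMMC arrays and 522.0 and 787.2 in the P815 arrays, and was 5.66-fold lower in P815.

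miR-221 and miR-222, made from 1 locus on chromosome X, are known in human cells to repress KIT and the cell cycle inhibitor CDKN1B. miR-221 had intensities of 13368 and 13603 in BMMC without and with SCF, and 864.0 and 1098 in P815 without and with imatinib. miR-222 had intensities of 3806 and 3266 in the BMMC arrays and 515.2 and 604.8 in the P815 arrays. Both read brighter on both BMMC arrays, as most miRNAs did before scaling in the compared pair. The differences were -2.34 for miR-221 and -1.43 for miR-222, and -2.36 and -1.59 in the second pair. Outside the seed the 2 sequences differ, with 12 differing bases in all.

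miR-23a, miR-23b, miR-27a, miR-27b and miR-24 come from a pair of paralogous clusters, on chromosomes 8 and 13. All 5 measured members were at least 2-fold lower in P815, against 30.1% of all 196 miRNAs. The median difference of the 5 was -1.55, with a second-pair median of -2.04, and the 5 were listed on both arrays. miR-23a had intensities of 32354 and 28391 in BMMC without and with SCF and 2706 and 3365 in P815 without and with imatinib. miR-27a was 3.09-fold lower, miR-24 3.0-fold, miR-27b 2.92-fold, miR-23b 2.85-fold and miR-23a 2.64-fold. miR-27a and miR-27b differ at 1 base, and the miR-24 of both clusters is the same mature RNA, so the clusters cannot be read apart.

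The let-7 family with miR-98, whose seed GAGGUAG is carried by 9 measured miRNAs and which restrains growth genes such as Hmga2 and Lin28, was mixed. Of the 9, 4 were at least 2-fold lower and 0 higher, against 30.1% and 19.4% over all 196 miRNAs. Of the 9, 8 lay below 0, with a median of -0.52. let-7c had the lowest difference of the 9, at 4.10-fold lower, let-7a was 2.61-fold lower with intensities of 6331 in SCF-treated BMMC and 900.0 in untreated P815, and let-7b stood at 0.01. let-7a differs from let-7c and from let-7f at 1 base each, yet let-7f differed by -0.08. Cross-hybridization within the family was not tested.

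Among other families, all 4 measured miR-30 members, abundant miRNAs of many tissues, were measured at least 2-fold lower, 3 of them at the bound. Their median was -1.64. Over all 196 miRNAs, 30.1% were at least 2-fold lower. miR-30a-5p, listed in BMMC only, was at -1.16 and at -0.26 at its bound. Of the 3 miR-29 miRNAs, which target collagen mRNAs, miR-29c and miR-29b were at least 2-fold lower and miR-29a differed by -0.68. miR-181a, of a family known in lymphocyte development, was at least 3.0-fold lower. miR-181c, listed in BMMC only, was at -1.35 and at -0.24 at its bound, while miR-181b differed by -0.49 and miR-181d by -0.17. In the miR-15 and miR-16 family, which represses cyclins, miR-15a alone was at least 2-fold lower, at -1.03, and miR-16 differed by -0.74. miR-34a, a target of p53, was 4.24-fold lower, with a difference of -1.75 in the second pair. The other members of its list, miR-34b at 0.39, miR-34c at 0.34 and miR-449 at 1.03, lay above 0, and the list median was 0.37, or -0.50 with no scaling. The medians of the miR-30, miR-29, miR-181 and miR-15 families and the miR-34a value kept their direction under every scaling tried. Median centring and no scaling lowered the median difference of all 196 miRNAs, which favoured a direction below 0.

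Other miRNAs among the lowest lay partly near background or changed between the pairs. miR-720, since withdrawn as a likely tRNA fragment, had intensities of 2284 and 1709 in BMMC without and with SCF and 244.8 and 333.0 in P815 without and with imatinib, at least 3.99-fold lower. miR-30d was at least 3.40-fold lower and miR-30b 4.33-fold, and miR-29c was 4.31-fold lower. miR-698 and miR-689, rodent miRNAs, were 4.48-fold and 4.01-fold lower but at 0.87 and 0.45 in the second pair. The intensity of miR-698 was 1302 and 2246 in the BMMC arrays and 312.0 and 1158 in the P815 arrays, so starved BMMC and imatinib-treated P815 were close. miR-471, at 3.71-fold lower, was likewise at 0.32 in the second pair. miR-31, lower by 3.33-fold, had a second-pair difference of -2.51. Its intensity was 2297 and 1508 in the BMMC arrays and 313.8 and 219.2 in the P815 arrays.

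miR-223, a myeloid miRNA, was listed in SCF-treated BMMC only, at an intensity of 717.0 against 160.2 in untreated P815, a difference of -2.30 and a bound of at least 1.45-fold lower. miR-142-3p, a marker of blood cells, had 519.2 and 217.5, a difference of -1.03 that was -0.12 at its bound, while miR-142-5p of the same hairpin was listed on both arrays at 0.46. miR-155, which is induced in activated immune cells, had 899.8 and 660.0 and a difference of 0.77. The 5 listed blood lineage miRNAs had a median of 0.00, the value of miR-191. That median was -1.03 with median centring and -1.63 with no scaling. Of 8 miRNAs chosen as blood lineage markers, 5 were listed in SCF-treated BMMC and 3 in untreated P815, and miR-150, miR-146a and miR-126 were listed in neither. Of 7 miRNAs reported in mast cells, 6 and 5 were listed. Over all 389 mouse miRNAs, 175 were listed in SCF-treated BMMC and 153 in untreated P815. Of 26 markers of other cell types, 7 were listed in each sample, at intensities up to 3056 in BMMC and 2314 in P815, and their part in any result was not tested. Of these, miR-1 and miR-206, known from muscle, were higher in P815 on the normalized scale, at 1.16 and 1.06, with a list median of 1.11 that was -0.17 with no scaling. Before scaling miR-1 read 392.5 in BMMC and 385.2 in P815, and miR-206 also read lower in P815. miR-145, known from smooth muscle, was listed in BMMC only, at 539.5 against 179.0, a difference of -1.62 that was -0.17 at its bound. miR-214, of the same list and listed on both arrays, went the other way, at 1.25.

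miR-193b was among the highest in P815. Its intensity was 326.0 and 294.8 in BMMC without and with SCF, and 820.5 and 761.0 in P815 without and with imatinib. Both P815 arrays were above both BMMC arrays before any scaling, and in SCF-treated BMMC the probe was not listed. The difference was 2.91 on the normalized scale, where its bound was at least 4.85-fold (2.28), and 2.62 in the second pair. Before scaling the P815 reading was 2.78 times the BMMC reading. At its bound miR-193b lay below miR-431, at 2.46, and miR-20b, at 2.44, both listed on both arrays. miR-193a, of the same seed and with 3 differing bases among 22, differed by -0.31, with intensities of 929.8 in SCF-treated BMMC and 361.8 in untreated P815. miR-365 is encoded beside miR-193b on chromosome 16, and a second copy lies on chromosome 11. It had a difference of 1.81, was 3.52-fold higher, and its intensities before scaling were 1.49 times as high in P815.

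miR-431, one of many miRNAs of the imprinted Dlk1-Dio3 region on chromosome 12, had intensities of 2661 and 1468 in BMMC without and with SCF, and 2900.5 and 2754 in P815 without and with imatinib. Starved BMMC was nearly as bright as P815 for it, and SCF-treated BMMC was the faintest of the 4 arrays. The difference was 2.46, 5.48-fold higher, and 1.40 in the second pair, but a human-named probe of the same miRNA gave 0.40 and was not listed. Of the 48 Dlk1-Dio3 miRNAs on the array, 10 entered, 4 at least 2-fold higher and 3 lower, which at the bound were 2 and 0. Over all 196 miRNAs, 19.4% were at least 2-fold higher and 30.1% lower. The median of the 10 was 0.53, near the 0.52 of the virus and worm probes. It was -0.44 with median centring and -1.05 with no scaling.

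The miR-17-92 cluster and its paralogs are known to drive growth in lymphoma and other tumours. They formed the list with the most measured miRNAs and the largest count of them at least 2-fold higher. Of 14 miRNAs on the array, 13 entered, 7 were at least 2-fold higher (6 at the bound) and 0 lower, against 19.4% higher over all 196 miRNAs. Smaller lists had a larger share: 2 of 3 for miR-193 and miR-365, and 2 of 2 for the muscle list and for the neural list. The muscle and neural lists each had 4 miRNAs on the array. The neural 2 were miR-128a and miR-128b, matched to the same mature sequence. For the 13 miRNAs of the miR-17-92 list the median difference was 1.03, 0.77 in the second pair and -0.17 with no scaling. Of the 13, 4 were brighter in P815 before scaling. miR-20b had intensities of 6624 and 3331 in BMMC without and with SCF, and 5365 and 5228 in P815 without and with imatinib, and was 5.43-fold higher after normalization. Its BMMC value without SCF was above both P815 values. miR-106a was 4.58-fold higher, with intensities of 3701 in SCF-treated BMMC and 5107 in untreated P815. On other probes miR-20b gave 1.39 and 1.42, and a human-named miR-106a probe gave 1.53.

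Within the seed AAAGUGC, 6 measured miRNAs ran from -0.40 for miR-106b, through 0.95 for miR-93, 1.55 for miR-17-5p and 1.64 for miR-20a, to 2.19 for miR-106a and 2.44 for miR-20b. miR-17-5p and miR-20a differ at 2 bases, and their differences were -0.21 and -0.012 with no scaling. miR-17-5p and miR-106a differ at 1 base and may cross-hybridize. The 3 miRNAs of seed AUUGCAC, miR-92b, miR-25 and miR-92, were at 1.03, 1.27 and 1.69. The miR-106a cluster on chromosome X had 6 measured members with a median of 1.84. Among them, miR-19b and miR-92 are also encoded in the chromosome 14 cluster, and the same readings are counted in both. In the miR-17-92 cluster on chromosome 14, 7 of 8 measured members lay above 0, and miR-18a*, the passenger strand of miR-18a, was listed in BMMC only, at -1.06 and at 0.00 at its bound, with a probe no brighter than its mismatch probe.

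The Sfmbt2 intronic cluster, a group of rodent miRNAs within the Sfmbt2 gene on chromosome 2, had 8 miRNAs on the array and all 8 entered. Of these, 4 were at least 2-fold higher and 0 lower, against 19.4% and 30.1% over all 196 miRNAs. The median of the 8 was 0.94, and it was -0.28 with no scaling. miR-467b was 3.18-fold higher after normalization and stood at -0.013 with no scaling. Near-identical sequences of this cluster may cross-hybridize, so its members are not separate readings.

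Among single miRNAs, miR-574 was 4.16-fold higher, with intensities of 7140.5 and 5571 in BMMC without and with SCF and 6222 and 4029 in P815 without and with imatinib. The BMMC array without SCF was the brightest of the 4 for it. miR-7, rich in endocrine and nerve cells, was 2.95-fold higher on its human-named probe. A rat-named miR-7 probe gave 0.78, and before scaling it read 516.25 in SCF-treated BMMC and 403.75 in untreated P815. miR-128a and miR-128b, rich in brain, were at 1.45 and 1.31. Before scaling miR-128a was 1.14 times and miR-128b 1.08 times as bright in P815. miR-703, at 3.41-fold higher, had a difference of -0.13 in the second pair. miR-691, at 3.08-fold, and miR-188, at 2.66-fold, stood at -0.088 and -0.12 with no scaling.

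Among the 125 miRNAs with a sequence there were 86 seeds, and 20 of them were shared by at least 2 of the miRNAs. In 14 of these 20 seed groups all members lay on 1 side of 0, but no share expected by chance was computed and most groups hold only 2 members. Of the 7 groups with at least 3 members, 3 lay wholly below 0 and 1 wholly above. The group CACAGUG is miR-128a and miR-128b, which were matched to the same mature sequence. GGCAGUG was the seed group that held both a miRNA at least 2-fold lower and one at least 2-fold higher, miR-34a at -2.09 and miR-449 at 1.03. By position, 32 groups of neighbouring genes at most 10 kb apart held at least 2 measured miRNAs, of which 16 lay wholly below 0 and 6 wholly above. A miRNA encoded at several loci was counted in each group, so these groups share readings. For example, miR-181a and miR-181b form a group on chromosome 1 and again on chromosome 2, with the same values. Neighbours share a primary transcript in many cases, and relatives can share probes' targets, so members of a group are not independent readings.

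Mismatch probes, made to bind the same RNA less well, were on the array for 47 of the 59 lower miRNAs and 26 of the 38 higher. Among the lower miRNAs with one, the median difference was -1.45 on the matched probes and -0.06 on the mismatch probes. Among the higher, it was 1.29 and 0.09. The matched probe read at least 1.5 times its mismatch probe for 43 of the 47, read in SCF-treated BMMC, and for 23 of the 26, read in untreated P815. miR-18a*, miR-326, miR-615, miR-452* and miR-568 were not brighter than their mismatch probes there. A high count of matched probes at 1.5 times was favoured beforehand, as these miRNAs entered by being listed against the array's median mismatch probe. The share over the other miRNAs was not computed. The mismatch probe was itself at least 2-fold apart in the same direction for 5 of the lower miRNAs (miR-181a, miR-18a*, miR-326, miR-328 and miR-615) and for 5 of the higher (miR-206, miR-20a, miR-214, miR-452* and miR-568). Where a miRNA had several listed probes named for different species, 42 pairs of probes over 36 miRNAs gave differences apart by a median of 0.17, with a 95th percentile of 1.03, and 1 pair had opposite signs. Pairs with an unlisted probe were left out, such as miR-431 (2.46 mouse-named, 0.40 human-named) and miR-345 (-1.20 rat-named, 0.31 human-named).

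Some human-named probes with no mouse gene also stood apart. miR-663 had intensities of 12530.5 and 6878 in BMMC without and with SCF and 443.8 and 2193 in P815 without and with imatinib, a difference of -2.62. miR-638 had 16508 and 10651 in the BMMC arrays and 977.0 and 5966 in the P815 arrays, a difference of -1.90. For both probes the P815 array with imatinib was several times as bright as the one without. What RNA these probes bind in mouse cells was not tested.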

How the data were processed

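Total RNA of 4 samples (10 micrograms each, extracted with trizol and labelled with Cy3 by RNA ligase, per the labels) was hybridized to 1 array each. Per the file headers, the deposited array tables give a single mean intensity per probe, linear and without any background reading. The authors' processed intensity table subtracts the median mismatch probe, lists values at or above 1.5 times it, and scales the cell types separately, as read from the values, so it was used here for the listing rule only. The array maker is not given in the sources used here. No column was left without a sample (0 columns).

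Intensities were corrected with normexp (offset 50) in limma 3.58.1 (R 4.3.3), taken to log2 and quantile-normalized over the 4 arrays on perfect-match probes, after the procedure was tested on simulated data. A miRNA's probe was the mouse-named one, otherwise the human-named, otherwise the rat-named one. Named miRNAs are the 15 with the largest difference in each direction among those at least 2-fold apart at their bound, members of the lists, and those apart in opposite directions in the 2 pairs; other miRNAs were named after their values were seen. The members and lists were chosen with earlier results of these data known. With 1 array per group, no test was made. Alternatives covered the scaling, the background correction, the detection filter, the probe choice and the fold.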

Additional observations from a re-analysis of the deposited data

Results flagged for a closer look

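miR-485-3p, of the Dlk1-Dio3 region, was the 1 miRNA with measured differences of at least 2-fold in opposite directions in the 2 pairs of arrays. In the pair with KIT taken as active it was lower in P815, at -1.46 on the log2 scale, and in the pair of imatinib-treated P815 and starved BMMC it was higher in P815, at 1.19. A human-named probe of the same miRNA gave -0.75 and 0.82. In the first pair it was listed in BMMC only, and at its bound it was at -0.41, under 2-fold. The difference between the pairs was not tested, as each group has 1 array.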

How the results depend on the processing

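The balance of higher and lower miRNAs (38 and 59) depended on the scaling. The higher count was 7 with median centring, 23 with cyclic loess, 2 with no scaling and 12 at a 3-fold threshold, and 57 with plain background subtraction. The lower count was 113 with no scaling, 30 with miRNAs listed on both arrays, 37 at the bound and 25 at a 3-fold threshold. The share of member probes at least 2-fold apart (42.2%) was 35.1% with 75th percentile scaling, 35.5% with cyclic loess, 54.3% with no scaling, 36.1% with quantile normalization over the 2 arrays, 30.0% with no background correction, 63.9% with plain subtraction and 20.1% with no detection filter. The share of like signs in the 2 pairs (78.0%) was 92.1% with no scaling and 71.2% with no detection filter. With no scaling, differences turned to -0.013 for miR-467b, -0.012 for miR-20a, -0.088 for miR-691, -0.21 for miR-17-5p and -0.12 for miR-188, and the list medians to -0.17 for miR-17-92, -0.17 for muscle, -0.50 for the miR-34 family, -0.28 for Sfmbt2, -1.05 for Dlk1-Dio3, -0.28 for erythroid and -0.61 for epithelial miRNAs. Of 322 values of named miRNAs under the alternatives, 300 kept their direction and stayed at least 2-fold, 17 kept their direction below 2-fold and 5 turned. The 17 and the 5 were all values of miRNAs higher in P815, under median centring or no scaling. Those settings lowered the median difference of the 196 miRNAs, to -0.70 and -1.30. Many of the 300 could not change. The detection-filter alternatives repeat the main values, and the probe-choice alternatives do so for miRNAs with 1 probe. A miRNA unlisted under an alternative gave no value there. One case was miR-431 with the human-named probe first, a probe that gave 0.40. No paired analysis was possible because each group has 1 array and the labels carry no replicate numbers, and for the same reason no replicate could be left out. Members near the mismatch median are limited by signal over background.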

Other observations

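Across the 125 miRNAs with a sequence, the difference correlated with the GC content of the mature miRNA at r = -0.01 and rho = -0.03, given as a description across miRNAs that share arrays. Median GC content was 47.8% in the higher miRNAs, 45.5% in the lower and 45.5% in all. Among human-named probes with no mouse gene, miR-604 and miR-627 stood higher in P815, at 2.59 and 2.27 on the log2 scale.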
